A study of Mus musculus with 12 samples.

Results

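JV101 was compared with saline in mice that had undergone sham surgery, an operation without removal of kidney tissue. The comparison rests on 6 of the 12 RNA-seq libraries of the series: 3 labelled sham with JV101 and 3 labelled sham with saline, taken by the treatment in their labels and described across all genes. All mice were wild-type C57BL6, and the RNA came from cardiomyocytes isolated from the heart 16 weeks after surgery. The other 6 libraries, 3 with saline and 3 with JV101, came from mice that had undergone 5/6 nephrectomy (NX), a model of kidney failure. The labels do not say what JV101 contains, and the title of the series concerns a gene therapy that recaps telomeres. The labels number the replicates 1 to 3 in each group and do not say whether each is a separate animal, so a p-value here reflects the spread of these libraries alone, which may be technical.

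Telomeres are the protein-capped ends of chromosomes, and shelterin is the complex that binds them. Telomere erosion is known in cardiomyocytes of failing hearts. Adult cardiomyocytes rarely divide, burn mainly fatty acids, and depend on chaperones, the proteins that fold other proteins and keep them from aggregating. Bulk RNA of isolated cardiomyocytes also holds RNA of the other heart cells that were not removed. Fewer cells of a type and less RNA per cell cannot be told apart in such data.

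No gene passed the test between sham JV101 and sham saline. By edgeR's quasi-likelihood test over 14412 genes, 0 genes (0%) had a Benjamini-Hochberg adjusted p under 0.05, and the smallest adjusted p was 1.00. At an unadjusted p under 0.05, 105 genes (0.729%) were higher and 140 (0.971%) lower with JV101. DESeq2 gave 0 genes adjusted and 309 unadjusted. Groups did not overlap, with all 3 JV101 libraries above all 3 saline libraries, in 253 genes (1.76%), and with all 3 below in 298 (2.07%). The median log2 fold change of all tested genes was 0.03. Every gene named below as higher or lower is therefore described by its values and has an adjusted p of 1.00 by edgeR.

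The data set bounds on most well-expressed genes. The 95% interval of the fold change lay within 2-fold in either direction for 8937 genes (62.0%). That share was 1.40% of 2354 genes under 1 CPM (read counts scaled to library size with TMM factors), 57.1% of 5224 genes from 1 to 10 CPM, 86.6% of 6034 from 10 to 100, and 87.4% of 800 at 100 or more. Between 10 and 100 CPM the median SE was 0.19 on the log2 scale, so that 2 SE made a 1.29-fold difference. The 6 sham libraries held 27.0 to 32.7 M counts. Genes of the mitochondrial genome took 36.7%, 69.0% and 44.2% of them in saline replicates 1 to 3 and 45.1%, 58.4% and 42.3% in JV101 replicates 1 to 3. Saline replicate 2 was the shallowest in nuclear genes, at 8.38 M counts. Total counts, mitochondrial share, nuclear counts, genes detected and the share of the 10 highest genes did not differ detectably between the groups (exact permutation test, 2-sided, p = 0.6 to 1, adjusted p = 1 for each of the 5 measures, n = 3 per group, smallest possible p = 0.1). Libraries correlated at 0.941 to 0.968 between the groups and at 0.913 to 0.966 within them, as Pearson's r across genes of log2 CPM, a description in which genes are not replicates.

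**Figure D1:**
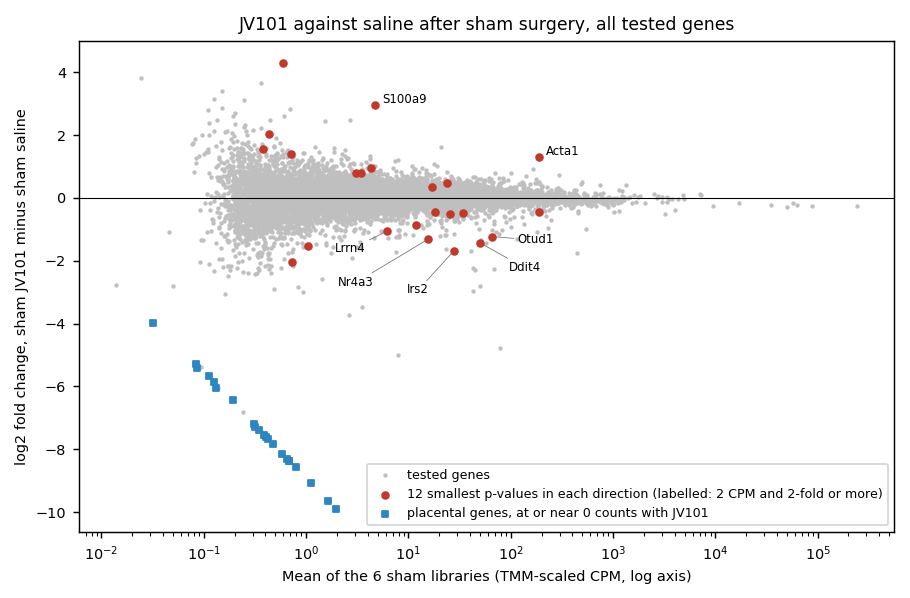
Log2 fold change of each of the 14412 tested genes (y axis, sham JV101 minus sham saline) against its mean in the 6 sham libraries (x axis, TMM-scaled CPM, log axis). Red points are the 12 genes with the smallest unadjusted p in each direction, and blue squares are placental genes, whose fitted fold change depends on the prior count because sham JV101 libraries are at or near 0 counts.

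Some libraries carried RNA of genes not known from cardiomyocytes. Genes known from the placenta were counted in saline replicates 1 and 2: over 43 such genes, 665 and 995 counts. Saline replicate 3 held 10, and JV101 replicates 1 to 3 held 0, 0 and 2. *Tpbpa*, a trophoblast gene, had 142, 139 and 0 counts in saline replicates 1 to 3 and 0 in each JV101 library. *Prl3b1*, placental lactogen, had 79, 136 and 0 and then 0 in each, and *Psg21*, a pregnancy-specific glycoprotein, 56, 90 and 0 and then 0 in each. The fetal protein *Afp* followed with 55, 171 and 0 and 0 in each JV101 library. Of these 43, 22 were tested, and 16 were lower at an unadjusted edgeR p under 0.05, beside 0.971% of all genes. They passed the filter through the libraries that hold placental counts, so their count is no independent support. The 16 made up 11.4% of the 140 lower genes, of which 23 had 0 counts in all JV101 libraries. Reads of these families can be split between near-identical copies, so the sums are firmer than single genes. The placental genes were chosen after their values were seen. Their source, and the part of the same source in other genes of saline replicates 1 and 2, was not tested.

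Other libraries stood apart as well. *Igtp*, an interferon-induced GTPase, was at 213, 9.18 and 5.91 CPM in saline replicates 1 to 3 and at 10.2, 5.15 and 14.02 in JV101 replicates 1 to 3, so that saline replicate 1 alone was high. Airway epithelium markers were highest in the sham libraries numbered 3: *Bpifa1*, a secreted airway protein, was at 0.947, 0.577 and 184 CPM with saline and 0.656, 2.89 and 53.9 with JV101. Atrial markers were low in both sham libraries numbered 2, with *Myl4*, an atrial myosin light chain, at 157, 8.66 and 345 CPM with saline and 76.3, 7.64 and 205 with JV101. Ventricular cardiomyocyte markers bore out the label: *Myh6*, the adult cardiac myosin heavy chain, was at 15401 to 21845 CPM with saline and 7977 to 22305 with JV101. *Myl2*, a ventricular light chain, ranged from 4100 to 5459 over the 6 libraries.

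Cytosolic chaperones, a list that holds genes of the heat shock response, were lower with JV101 in most members. The stress-inducible members are switched on by heat shock factor when unfolded proteins accumulate, and the factor binds repeats of nGAAn in alternating orientation. Of 26 tested members, 21 were lower and 5 higher, with a median log2 fold change of −0.38 against 0.03 for all genes. At an unadjusted p under 0.05, 11 were lower and 0 higher, beside the 0.971% of all genes that were lower. Groups did not overlap in 5 members, all lower, beside 2.07% of all genes in that direction. The list summed to 3849, 5613 and 5072 CPM in saline replicates 1 to 3. In JV101 replicates 1 to 3 it summed to 2969, 4300 and 3453, so that the groups overlapped. The list had been seen to be lower in earlier results of these data, so its count is no independent support.

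Promoters of the 3 heat shock genes with the smallest p in these lists and an entry in the reference table are printed because the response is defined by sites there. They are the 250 bases before the gene start (RefSeq, GRCm38.p6, an older assembly than that of the counts), 5′ to 3′ on the gene's own strand. Capitals mark a pair of heat shock units in opposite orientation, GAANNTTC or TTCNNGAA, each its own reverse complement.
Hspb1, chr5:135887669-135887918, plus strand: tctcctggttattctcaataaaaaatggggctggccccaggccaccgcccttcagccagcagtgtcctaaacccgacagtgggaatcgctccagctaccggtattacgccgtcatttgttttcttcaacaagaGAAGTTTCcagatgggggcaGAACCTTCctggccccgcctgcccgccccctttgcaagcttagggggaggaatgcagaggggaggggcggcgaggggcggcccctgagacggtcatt
Hsph1, chr5:149636337-149636586, minus strand: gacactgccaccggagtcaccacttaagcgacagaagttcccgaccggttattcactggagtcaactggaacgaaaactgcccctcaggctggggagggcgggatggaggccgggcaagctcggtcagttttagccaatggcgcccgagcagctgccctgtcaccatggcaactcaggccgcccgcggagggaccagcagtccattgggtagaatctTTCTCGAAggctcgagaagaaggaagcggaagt
Stip1, chr19:7040027-7040276, minus strand: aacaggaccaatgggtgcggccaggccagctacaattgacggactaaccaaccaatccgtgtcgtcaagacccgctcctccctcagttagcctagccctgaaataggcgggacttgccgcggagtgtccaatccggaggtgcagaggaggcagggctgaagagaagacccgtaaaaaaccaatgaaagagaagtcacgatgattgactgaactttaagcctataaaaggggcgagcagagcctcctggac
*Hspb1* held 2 pairs, beginning 117 and 97 bases before the start, *Hsph1* held 1 at 33 bases, and *Stip1* held 0. Such a pair occurred in 1164 of 11408 tested genes with a promoter in the table (10.2%) and in 6 of 21 such cytosolic chaperones (28.6%). Of the cytosolic chaperones with an unadjusted p under 0.05, 8 had a promoter there, and 4 of the 8 held a pair. *Hsp90ab1*, *Hsp90aa1* and *St13* had no entry. The near-identical copies *Hspa1a* and *Hspa1b* are both among the 4, so these are not separate cases. This motif was chosen after a longer one proved rare. A match is only a match of letters, and this comparison carries no test.

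Among the Hsp70 machinery, *Hsph1*, which reloads Hsp70 with ATP, was at 51.7, 137 and 102 CPM in saline replicates 1 to 3 and at 41.1, 63.5 and 32.3 in JV101 replicates 1 to 3. Saline replicates 2 and 3 were above every JV101 library, while saline replicate 1 lay inside the JV101 range (log2 fold change of JV101 over saline, in parentheses here and below, −1.09, SE 0.37, adjusted p = 1.00 by edgeR). *Hspa1a*, the stress-inducible Hsp70, was at 10.2, 98.5 and 112 CPM with saline and 7.96, 30.6 and 7.07 with JV101 (−2.28, SE 0.86). Its near-identical copy *Hspa1b* was at 4.22, 130 and 126 CPM, then 5.44, 29.5 and 2.67 (−2.80, SE 1.12). Reads of the pair may have been split between them, so each is uncertain alone. Both were high in saline replicates 2 and 3 and intermediate in JV101 replicate 2. *Dnajb1*, an Hsp40 that feeds clients to Hsp70, was at 16.4, 48.6 and 29.3 CPM and then 14, 17.9 and 13.99, with saline replicate 1 again within the JV101 range (−1.03, SE 0.41).

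Genes of the Hsp90 branch varied in how far the groups lay apart. *Stip1*, which hands clients from Hsp70 to Hsp90, was at 86.8, 118 and 112 CPM with saline and 56.1, 85.1 and 66.9 with JV101 (−0.60, SE 0.21, adjusted p = 1.00 by edgeR). *Hsp90ab1*, the constitutive Hsp90, was at 1021, 1296 and 1177 CPM with saline and 746, 965 and 872 with JV101 (−0.44, SE 0.16). All 3 JV101 libraries lay below all 3 saline libraries for both genes, although *Stip1* all but touched between saline replicate 1 and JV101 replicate 2. *Hsp90aa1*, the stress-inducible Hsp90, overlapped between the groups at 112, 371 and 251 CPM against 112, 169 and 68.4 (−1.07, SE 0.43). Outside that branch, *Bag3*, a co-chaperone of the sarcomere, was at 219, 219 and 254 CPM and 122, 193 and 200.04, without overlap (−0.43, SE 0.20, adjusted p = 1.00 by edgeR).

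The small heat shock proteins were split in direction. Of 7 tested members 3 were higher and 4 lower, with a median of −0.06. *Hspb1*, which guards actin filaments, was at 174, 449 and 295 CPM with saline and 158, 199 and 113 with JV101 (−0.97, SE 0.32). Saline replicate 1 fell inside the JV101 range. *Hspb7*, a cardiac member, pointed the other way at 1299, 861 and 1285 CPM against 922, 1675 and 1965 (0.41, SE 0.29). Mitochondrial chaperones numbered 9, with a median of −0.08 and 0 at an unadjusted p under 0.05.

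The chaperone counts leaned on single libraries and on the fit. Without saline replicate 2, 0 of the 26 cytosolic chaperones had an unadjusted edgeR p under 0.05. Without JV101 replicate 1, 1 did, and without JV101 replicate 2, 15 did. In a fit of only the 6 sham libraries 4 did. The median ranged from −0.51 to −0.24 whichever library was left out. With saline replicate 3 alone as reference, which held few placental counts, 24 of 26 members were lower, with a median of −0.41 and 5 at an unadjusted p under 0.05. That fit, added after the data were seen, assumes that the lone library varies like the other groups.

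**Figure D2:**
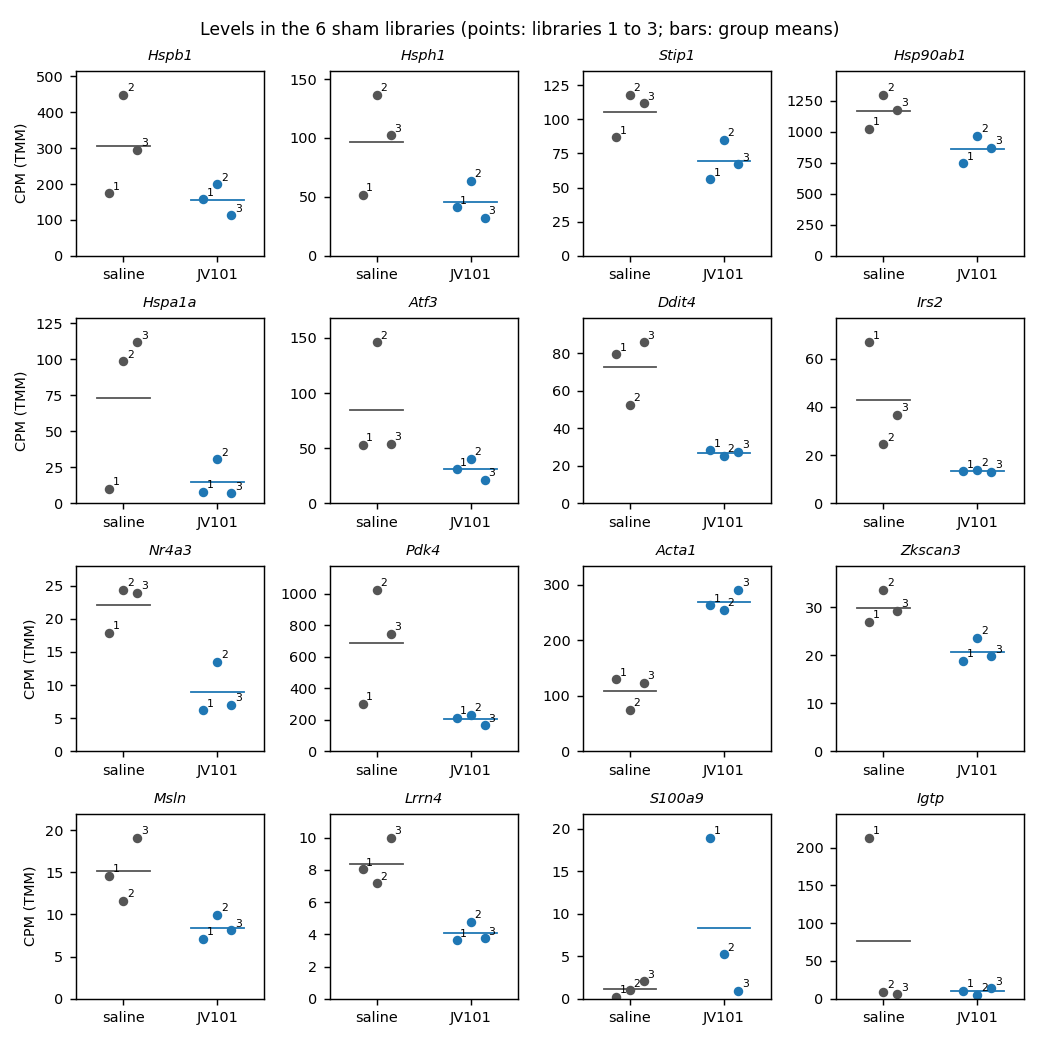
TMM-scaled CPM (y axis, starting at 0) of 16 genes in the sham saline (grey) and sham JV101 (blue) libraries, with points numbered by replicate and bars at group means. *Stip1*, *Hsp90ab1*, *Nr4a3*, *Acta1* and *Zkscan3* are among the genes that separate the groups, as are *Atf3*, *Ddit4*, *Irs2*, *Pdk4* and *Msln*. *Igtp* is highest in saline replicate 1 and *S100a9* in JV101 replicate 1.

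Genes of endoplasmic reticulum stress, the response to misfolded secretory proteins, were lower in 16 of 22 members, with a median of −0.29. By unadjusted p under 0.05, 3 were lower and 0 higher, beside the 0.971% of all genes that were lower. *Atf3*, a stress-induced transcription factor, was at 53.3, 146 and 54.1 CPM with saline and 31.0, 40.4 and 21.2 with JV101 (−1.45, SE 0.54). *Manf*, a secreted protective factor of this compartment, was at 28.8, 46.0 and 43.1 CPM and 27.4, 23.9 and 17.7 (−0.77, SE 0.30). *Dnajb9*, a cofactor of the chaperone BiP, was at 29.1, 35.2 and 36.3 CPM and 23.6, 25.7 and 26.7 (−0.40, SE 0.16). The groups did not overlap for these 3 genes, a pattern that 2.07% of all genes shared in the lower direction. *Hspa5*, which encodes BiP, did overlap, at 408, 635 and 505 CPM against 310, 443 and 398 (−0.43, SE 0.21). Without saline replicate 2, 0 members had an unadjusted edgeR p under 0.05, and the list median was −0.15.

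Immediate early genes, which are transcribed within minutes of a stimulus, were lower in 19 of 25 tested members, with a median of −0.23. At an unadjusted p under 0.05, 2 were lower and 0 higher, beside 0.971% of all genes lower. The 2 were *Nr4a3* and *Atf3*, and *Atf3* is also counted in the endoplasmic reticulum stress list above. *Nr4a3*, an orphan nuclear receptor of this class, was at 17.9, 24.4 and 23.96 CPM with saline and 6.18, 13.5 and 6.98 with JV101. All JV101 libraries were below all saline libraries (−1.32, SE 0.37, adjusted p = 1.00 by edgeR). The unadjusted edgeR p stayed under 0.05 in each of the 6 fits that left out 1 library. Picking *Nr4a3* by its small p favours both results. *Fosl2*, a subunit of the AP-1 factor, was likewise without overlap at 50.6, 40.6 and 33.4 CPM against 31.5, 28.4 and 18.8 (−0.66, SE 0.30). *Fosb*, another subunit, was highest in saline replicate 2, with 80.6, 191 and 47.9 CPM against 61.6, 52.0 and 29.3 (−1.16, SE 0.56). The list median followed JV101 replicate 3, whose score was the lowest of the 6 libraries at −0.93. A score averages, over members, how far log2 CPM in a library lies from that member's average of the 6. Without that library the median was 0.05, and with saline replicate 3 alone as reference it was −0.02 over 26 genes.

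*Irs2*, *Ddit4* and *Otud1* were among the 12 lower genes with the smallest p. *Irs2*, which couples the insulin receptor to its kinases, was at 66.7, 24.5 and 36.7 CPM with saline and 13.2, 13.8 and 13.0 with JV101 (−1.68, SE 0.50, adjusted p = 1.00 by edgeR). *Ddit4*, an inhibitor of the growth kinase mTORC1, was at 79.4, 52.7 and 85.8 CPM and 28.4, 25.3 and 27.5 (−1.43, SE 0.45). The JV101 libraries were close to each other for both genes and below every saline library, while saline libraries were spread. *Otud1*, a deubiquitinase, was at 66.4, 119.8 and 91.2 CPM against 29.8, 48.3 and 40.1 (−1.23, SE 0.37). *Nfil3*, a transcriptional repressor listed with the clock genes, was at 25.1, 26.2 and 34.7 CPM and 6.13, 17.1 and 13.6 (−1.23, SE 0.40). None of these 4 genes overlapped between the groups, a pattern that 2.07% of all genes shared in the lower direction. Each had an unadjusted edgeR p under 0.05 in all 6 fits without 1 library. All 4 were picked by a small p in this comparison, which favours both results, so neither is independent support.

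*Zkscan3*, a repressor of autophagy genes, was at 27.0, 33.5 and 29.2 CPM with saline and 18.9, 23.6 and 19.8 with JV101, without overlap (−0.53, SE 0.14, adjusted p = 1.00 by edgeR). The autophagy and lysosome list that holds it had a median of 0.05 over 31 tested members, 21 of them higher. At an unadjusted p under 0.05 *Zkscan3* was its only member in either direction. *Ckmt1*, a mitochondrial creatine kinase little expressed in the heart, was at 1.07, 0.981 and 1.42 CPM against 0.219, 0.271 and 0.359, which rests on 6 to 12 counts per JV101 library (−2.02, SE 0.52).

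Among genes higher with JV101, skeletal actin stood out by level. *Acta1*, an actin of the fetal heart that returns under load, was at 129.5, 75.0 and 123 CPM with saline and 263, 255 and 291 with JV101. Every JV101 library was well above every saline library, and the JV101 values were close together (1.30, SE 0.42, adjusted p = 1.00 by edgeR). It had an unadjusted edgeR p under 0.05 in each of the 6 fits without 1 library, which picking *Acta1* by its small p favours. In the fetal program list, of 19 tested members 15 were higher and 4 lower, with a median of 0.12, and *Acta1* was the only one higher at an unadjusted p under 0.05. Without JV101 replicate 2, 9 members were higher and 10 lower, with a median of −0.03. *Myh7*, the fetal myosin heavy chain, was at 103, 47.3 and 54.6 CPM against 40.2, 72.8 and 134 (0.27, SE 0.44). *Xirp1*, an actin-binding protein of cell junctions, was lower at 319, 257 and 341 CPM against 106, 271 and 188, with saline replicate 2 below JV101 replicate 2 (−0.70, SE 0.27). The 20 sarcomere genes had a median of 0.01 and 0 at an unadjusted p under 0.05.

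Other genes among the 12 higher with the smallest p were expressed at lower levels. *Slc35e4*, a predicted solute transporter, was at 3.20, 3.06 and 2.48 CPM with saline and 6.95, 4.11 and 5.93 with JV101 (0.96, SE 0.25, adjusted p = 1.00 by edgeR). *Dph1*, an enzyme that modifies elongation factor 2, was at 2.48, 2.14 and 2.01 CPM and 2.79, 4.11 and 4.70 (0.80, SE 0.26). *Galns*, a lysosomal sulfatase, was at 3.12, 2.08 and 2.29 CPM and 3.15, 4.88 and 4.94 (0.78, SE 0.28). *Socs2*, a feedback inhibitor of growth hormone signalling, was at 23.1, 19.0 and 17.0 CPM and 23.2, 31.0 and 28.5 (0.48, SE 0.16). *Pde8a*, a cyclic AMP phosphodiesterase, was at 15.3, 16.6 and 13.3 CPM and 19.3, 19.9 and 18.2 (0.34, SE 0.12). None of the 5 overlapped, although *Galns* and *Socs2* all but touched between saline replicate 1 and JV101 replicate 1. Of all genes, 1.76% were higher without overlap. In the 6 fits without 1 library, *Galns* had an unadjusted edgeR p under 0.05 in 2, and *Socs2* and *Pde8a* in 4. *Slc35e4* and *Dph1* had it in all 6.

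No gene of fuel metabolism passed the test. Of 35 fatty acid oxidation genes 30 were lower with JV101, with a median of −0.17. Those at an unadjusted p under 0.05 were 2 lower and 0 higher, beside 0.971% of all genes lower. *Pdk4*, which keeps pyruvate out of the mitochondrion's citrate cycle, was at 299, 1025 and 748 CPM with saline and 213, 233 and 164 with JV101, without overlap (−1.76, SE 0.65, adjusted p = 1.00 by edgeR). *Acot1*, an acyl-CoA thioesterase with close copies, was at 6.04, 15.2 and 11.6 CPM against 4.02, 6.55 and 5.60, with saline replicate 1 below JV101 replicate 2 (−1.02, SE 0.34). *Ppargc1a*, a coactivator of mitochondrial genes, was at 72.4, 199 and 115 CPM against 40.5, 101 and 111 (−0.61, SE 0.40). Without saline replicate 2, 0 members had an unadjusted edgeR p under 0.05. JV101 replicate 1 had the lowest score of the list: its score was −0.45 against −0.02 to 0.23 in the other 5 libraries, and without it the median was 0.00 with 17 of 35 members lower. Branched-chain amino acid breakdown showed the same dependence, with 21 of 22 members lower and a median of −0.13, 0 at an unadjusted p under 0.05, and a median of 0.01 without JV101 replicate 1. The 25 genes of glucose uptake and glycolysis had a median of 0.01, and the 37 nuclear genes of the respiratory chain −0.04.

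**Figure D3:**
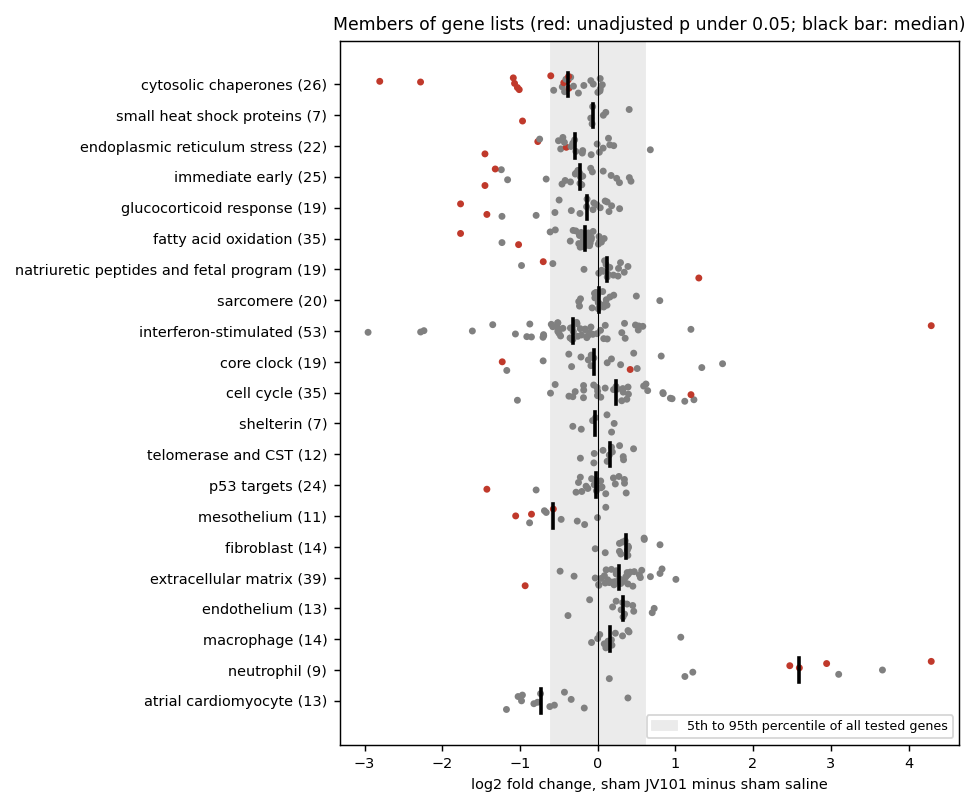
Log2 fold change (x axis, sham JV101 minus sham saline) of each tested member of 21 gene lists (y axis, with the number tested), with members at an unadjusted edgeR p under 0.05 in red, a black bar at each median and grey shading over the middle 90% of all genes. Cytosolic chaperones hold 11 red members, all lower, and neutrophil markers 4, all higher.

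Telomere genes had list medians near that of all genes or slightly above it. Of the 7 shelterin genes 3 were higher and 4 lower, with a median of −0.03 and groups that overlapped for all 7. For *Terf2ip*, which encodes the Rap1 subunit, levels were 10.5, 9.87 and 10.3 CPM with saline and 10.1, 9.40 and 10.6 with JV101. For *Terf2*, the subunit that shapes the telomere loop, they were 8.55, 10.6 and 7.03 CPM against 8.86, 7.82 and 8.27. *Terf1*, which binds the telomeric duplex, was at 3.17, 2.25 and 1.86 CPM and 4.27, 3.03 and 1.17, with JV101 both highest and lowest. The 95% interval of the log2 fold change was −0.30 to 0.24 for *Terf2ip*, −0.52 to 0.39 for *Terf2* and −0.79 to 1.21 for *Terf1*. Among 12 tested genes of telomerase and the CST complex, which finishes telomere replication, 9 were higher, with a median of 0.16 and 0 at an unadjusted p under 0.05. *Stn1*, a CST subunit, was at 6.37, 5.77 and 7.74 CPM with saline and 8.56, 9.08 and 9.79 with JV101 (0.46, SE 0.22, adjusted p = 1.00 by edgeR). *Nhp2*, which stabilises telomerase RNA, was at 6.11, 8.14 and 8.42 CPM and 9.90, 9.94 and 8.60 (0.33, SE 0.19). The groups did not overlap for either, a pattern that 1.76% of all genes shared in the higher direction. The 24 p53 targets had a median of −0.02, the 25 DNA damage response genes 0.06 and the 19 senescence genes 0.11. The senescence median was −0.32 without JV101 replicate 1, when 17 members were lower, and 0.36 without JV101 replicate 3. *Cdkn1a*, the main cell cycle inhibitor induced by p53, was at 43.1, 69.9 and 62.3 CPM against 46.2, 46.7 and 8.27 (−0.79, SE 0.68), with JV101 replicate 3 alone low.

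Cell cycle genes, all weakly expressed here, were higher in 22 of 35 members, with a median of 0.24. Only 1 was higher at an unadjusted p under 0.05, beside 0.729% of all genes. *Cdk1*, the kinase of mitosis, was at 0.691, 0.520 and 0.433 CPM with saline and 1.12, 0.723 and 1.95 with JV101, without overlap (1.20, SE 0.51). Without JV101 replicate 1 the median was −0.12.

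Markers of other cell types varied from library to library within each group. Mesothelium, the outer lining of the heart, was lower in 10 of 11 markers, with a median of −0.57. Markers at an unadjusted p under 0.05 were 3 lower and 0 higher, beside 0.971% of all genes lower. Its summed level was 71.6 to 90.9 CPM with saline and 44.7 to 61.7 with JV101, without overlap. *Msln*, mesothelin, was at 14.6, 11.6 and 19.1 CPM and 7.14, 9.94 and 8.12, and *Upk3b*, a surface protein of the lining, at 22.9, 26.4 and 27.8 CPM and 17.0, 20.3 and 14.6. Neither gene overlapped. *Wt1*, a transcription factor of the lining, was the 1 marker that was not lower, at 0.10 (SE 0.54). With saline replicate 3 alone as reference the median was −0.68.

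Markers of fibroblasts, endothelium and macrophages were higher in most members but set by JV101 replicates 1 and 3. Fibroblast markers summed to 902, 1347 and 1618 CPM with saline and 2989.8, 1323 and 589.6 with JV101. JV101 replicate 1 was the highest of the 6 libraries and JV101 replicate 3 the lowest. Their median was 0.37, with 13 of 14 higher, and −0.44 without JV101 replicate 1. Endothelial markers summed to 1421, 1228 and 1075 CPM and then 2759, 1629 and 515, with a median of 0.33 that became −0.26 without JV101 replicate 1. Macrophage markers summed to 212, 455 and 544 CPM and then 757, 375 and 159.99, with a median of 0.16 that became −0.50 without JV101 replicate 1 and −0.13 without saline replicate 1. Matrix genes followed the fibroblast markers: 35 of 39 were higher, with a median of 0.27, and −0.37 without JV101 replicate 1. *Ccn2*, a matrix signal that cardiomyocytes also make, went against its list at 103, 120.3 and 171 CPM with saline and 47.9, 69.7 and 88.9 with JV101, without overlap (−0.93, SE 0.36, adjusted p = 1.00 by edgeR). It was the only matrix gene at an unadjusted p under 0.05.

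Neutrophil markers were scarce and were highest in JV101 replicate 1, followed by JV101 replicate 2. All 9 tested markers were higher, with a median of 2.59 and 4 at an unadjusted p under 0.05, beside 0.729% of all genes higher. They summed to 7.24, 8.26 and 6.53 CPM with saline and 51.1, 18.1 and 3.14 with JV101, so that JV101 replicate 3 was the lowest of all. *S100a9*, a calcium-binding protein of neutrophils, was at 0.256, 0.981 and 2.04 CPM and 18.9, 5.24 and 0.958 (2.95, SE 1.03). *S100a8*, its partner, was at 0.768, 0.404 and 1.24 CPM and 9.85, 3.07 and 0.809 (2.47, SE 1.00). The list median was 1.21 without JV101 replicate 1 and 4.31 with saline replicate 3 alone as reference, over 10 genes. Without JV101 replicate 1, 1 marker was higher at an unadjusted p under 0.05, and without JV101 replicate 3, 6 were. Interferon-stimulated genes were lower in 40 of 53 members, with a median of −0.31 that became 0.45 without saline replicate 1, and 0 were lower at an unadjusted p under 0.05.

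**Figure D4:**
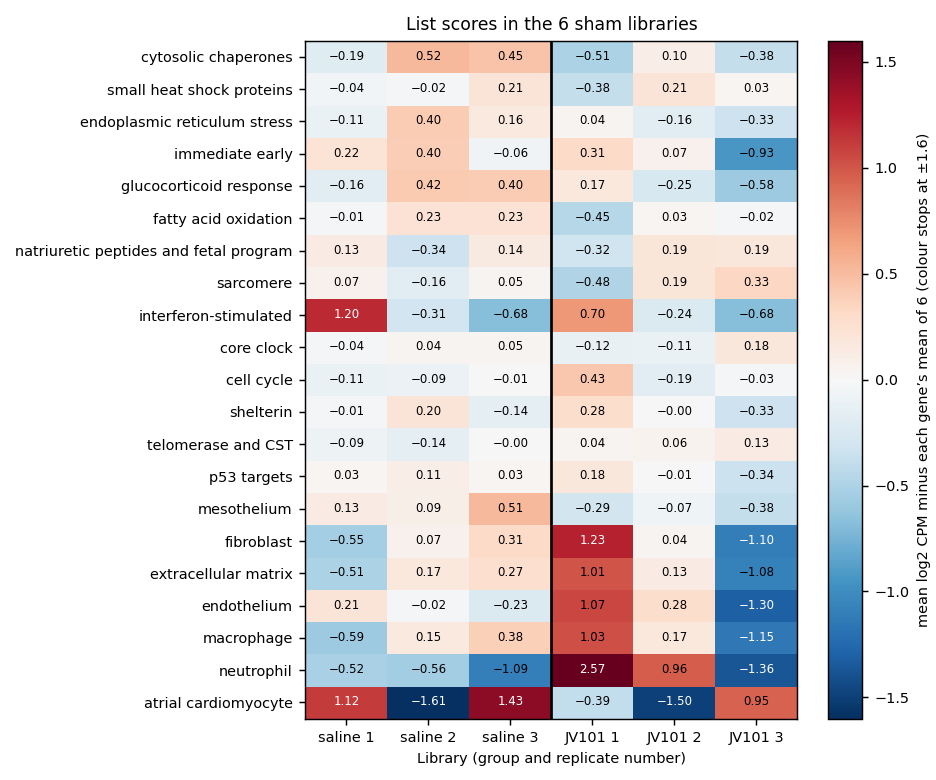
Score of 21 gene lists (rows) in each of the 6 sham libraries (columns), as the mean of log2 CPM minus each gene's mean over the 6 libraries, coloured from blue (low) to red (high). Fibroblast, matrix, endothelial, macrophage and neutrophil scores are highest in JV101 replicate 1 and lowest in JV101 replicate 3, and the interferon score is highest in saline replicate 1.

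The same question could be put to JV101 after nephrectomy, whose 6 libraries share none with the sham comparison. The interaction, the sham difference minus the nephrectomy difference, gave 0 genes (0%) at an adjusted p under 0.05 by edgeR and 256 (1.78%) unadjusted. Across 14412 genes the log2 fold changes of the 2 comparisons had a Pearson's r of −0.005, a description across genes, and 53.2% had the same sign. Of the 245 genes with an unadjusted p under 0.05 after sham surgery, 119 (48.6%) had the same sign after nephrectomy.

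The genes that follow were picked once their values in both comparisons had been seen. *Irs2* was at −1.68 (SE 0.50) after sham surgery and 0.72 (SE 0.49) after nephrectomy, on the log2 scale. *Nr4a3* was at −1.32 and 0.49, *Ddit4* at −1.43 and 0.39 and *Ccn2* at −0.93 and 0.65. *Hspa1a* was at −2.28 and 2.07, and its copy *Hspa1b* at −2.80 and 2.52. Of the 26 cytosolic chaperones 5 had an interaction p under 0.05, and their median after nephrectomy was −0.05. *Acta1* was at 1.30 and 0.01. The interaction of each of these 7 genes had an unadjusted edgeR p under 0.05 and an adjusted p of 1.00, so none passed the test.

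A few genes had like values in both comparisons. *Pdk4* was at −1.76 (SE 0.65) after sham surgery and −1.89 (SE 0.66) after nephrectomy, and *Acot1* at −1.02 (SE 0.34) and −0.99 (SE 0.34). *Msln* was at −0.85 and −1.18, *Lrrn4*, a leucine-rich membrane protein of mesothelium, at −1.06 and −1.61, and *Ckmt1* at −2.02 and −1.17. Their interaction p by edgeR ranged from 0.231 for *Lrrn4* to 0.961 for *Acot1*, which does not show that the responses were equal. The fatty acid oxidation list had medians of −0.17 and −0.24, and the mesothelial list −0.57 and −1.22. An unadjusted edgeR interaction p under 0.05 was seen in 0 of 35 fatty acid oxidation genes and 2 of 11 mesothelial markers. The share over all genes was 1.78%.

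**Figure D5:**
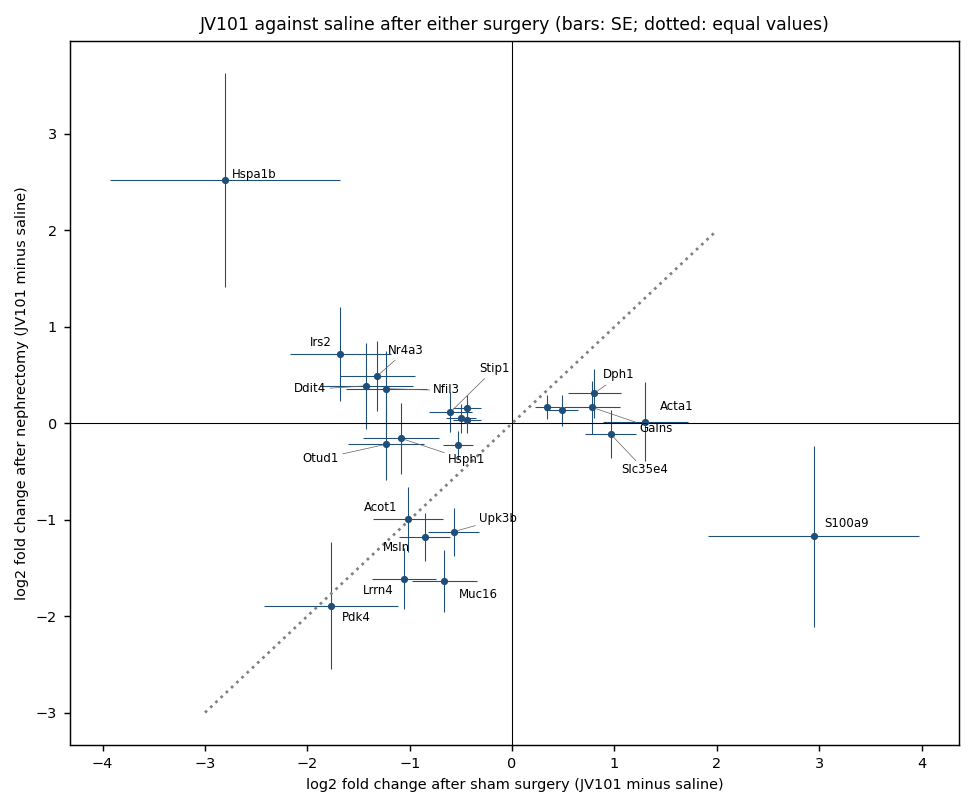
Log2 fold change of JV101 against saline after sham surgery (x axis) and after nephrectomy (y axis) for named genes, with bars of 1 SE and a dotted line of equal values. *Pdk4* and *Acot1* lie near the line, *Irs2*, *Nr4a3*, *Ddit4* and *Hspa1b* lie below 0 on the x axis and above 0 on the y axis, and *Acta1* lies near 0 on the y axis.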

How the data were processed

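RNA-seq libraries of polyadenylated RNA from isolated mouse cardiomyocytes were processed with fastp, HISAT2 and HTSeq against GRCm39, per the submitters' processing notes. The sources used here give no tool versions, annotation or strand setting, so reads of overlapping or antisense genes may not be told apart. The authors deposited raw counts for 22794 genes and FPKM of the same genes. Lengths implied by both files were the same in all libraries (largest relative difference 1.5e-08 over 9643 genes with enough counts). Columns were matched to samples by the column name in each label.

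Counts were filtered with filterByExpr (minimum count 10, minimum total 15), which left 14412 genes, scaled with TMM and fitted over all 12 libraries in 4 groups with edgeR 4.0.16 in R 4.3.3, so that the groups share 1 estimate of the spread. Each 2-sided quasi-likelihood F test was adjusted over all genes by Benjamini-Hochberg. The SE was derived as |log2 fold change|/√F. Library measures were compared by exact permutation. Deviations from the group mean correlated weakly between sham libraries with the same number (r = −0.16, 0.23 and 0.11 for replicates 1 to 3). Between unlike numbers r ranged from −0.30 to 0.21. Airway and atrial markers did follow the number, as described above. The numbers were not taken as pairs in the main fit, and a block on them was run as an alternative.

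The 50 gene lists (32 pathways, 18 cell types; 918 members, 16 not in the table, 864 tested) and the members described were chosen with earlier results of these data known. Named were the 12 genes with the smallest p in each direction, at most 4 per list, again by smallest p, all shelterin genes, defining cell markers and the printed promoters. Other genes named, among them the placental genes, were picked once their values had been seen. Not every gene that the rule names is described, and a gene can be in more than 1 list. Scripts were tested on simulated counts resembling these, in which 200 genes above 1 CPM were changed. At an adjusted p under 0.05, 20% of 2-fold and 80% of 4-fold changes were recovered, with 6 false calls. Changes of 2-fold could thus be missed by the test. Alternatives were DESeq2 1.42.0, RLE and upper-quartile factors, no filter, 5 CPM in 3 libraries, only the 6 sham libraries, a block on the replicate number, counts without the mitochondrial genome, limma 3.58.1 on log2 of the deposited FPKM plus 1 or 0.1, and leaving out each sham library. A fit without saline replicates 1 and 2 was added after the data were seen.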

Additional observations from a re-analysis of the deposited data

How the results depend on the processing

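Genes at an adjusted p under 0.05 numbered 0 under every alternative listed above. Genes at an adjusted p under 0.10 also numbered 0, with the fit without saline replicates 1 and 2 not counted at that threshold. Genes at an unadjusted p under 0.05, 245 in the fit reported, numbered 383 without a filter, 120 with 5 CPM in 3 libraries and 138 with only the 6 sham libraries. They numbered 48 and 90 with limma on log2 FPKM plus 1 and plus 0.1, where 12 were higher and 36 lower, and 36 and 54. Leaving out 1 library gave 143 (saline replicate 3) to 951 (JV101 replicate 3, 615 of them higher and 336 lower), and 384 without saline replicate 1. Saline replicate 3 alone against JV101 gave 324. Genes whose groups did not overlap, 551 in all, numbered 276 with the stricter filter, 179 with FPKM plus either pseudocount and 1308 to 2862 without 1 library, where fewer libraries have to separate. With the replicate number as a block 214 genes had an unadjusted p under 0.05 over all 12 libraries and 111 over the 6 sham libraries, with 0 adjusted in both. The block changed no adjusted call. Cytosolic chaperones at an unadjusted p under 0.05, 11 of 26 in the fit reported, numbered 2 and 4 with limma on log2 FPKM plus 1 and plus 0.1. With only the 6 sham libraries they numbered 4 without the block and 6 with it. With DESeq2 and with RLE factors they numbered 13.

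The direction of a list's median changed in some fits, and the cause was not tested. Values follow for lists with medians farther from 0. Lists with medians near 0 that changed sign without 1 library included senescence, apoptosis, the fetal program, macrophages, sarcomere, glycolysis, the nuclear respiratory chain, small heat shock proteins and mitochondrial chaperones. Without 1 library the medians ranged from −0.64 to 0.50 for the mitochondrial genome, −0.37 to 0.67 for matrix, −0.77 to 0.45 for interferon, −0.49 to 0.0533 for immediate early, −0.12 to 0.34 for cell cycle and −0.49 to 0.13 for Wnt inhibitor genes. For cell markers they ranged from −0.44 to 0.77 in fibroblasts, −0.26 to 0.74 in endothelium, −2.04 to 0.0778 in erythroid cells, −0.22 to 0.86 in platelets, −1.17 to 0.18 in Schwann cells, −2.58 to 0.0488 in adipocytes and −5.68 to 2.85 in airway. The mitochondrial genome median was 0.024 with FPKM plus either pseudocount. With the stricter filter the medians of temperature and clock output genes, Schwann cells and adipocytes were 0.0097, 0.33 and 0.17. Adipocyte markers were at 0.17 and 0.16 with only the 6 sham libraries, without and with the block, and platelet markers at −0.051 and −0.14. Platelet markers were at −0.064 without a filter and −0.075 without the mitochondrial genome. Of 3429 refitted values of 207 named genes, 164 lost an unadjusted p under 0.05 and 100 gained one. Among genes with an unadjusted p under 0.05 in the fit reported, 0 values changed direction, which picking by p favours. Sign changes of the other named genes were not counted there. Without 1 library, the log2 fold change ranged from −3.50 to 0.39 for *Igtp* and from −1.85 to 0.37 for *Sln*.

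Depth limited genes under 1 CPM most, where the 95% interval lay within 2-fold for 33 of 2354. Saline replicate 2 had the fewest nuclear counts of the 6 libraries.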

Other observations

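Wnt inhibitor genes, which block Wnt ligands or receptors, were lower in 5 of 8 tested members with JV101 after sham surgery and higher in all 8 after nephrectomy, with medians of −0.38 and 0.59. *Sfrp5*, a secreted decoy for Wnt, was at 1.18, 1.097 and 1.18 CPM in sham saline replicates 1 to 3 and at 0.356, 0.542 and 0.839 in sham JV101, without overlap (log2 fold change −0.99, SE 0.45). After nephrectomy its log2 fold change with JV101 was 1.78 (SE 0.49), and the interaction had an unadjusted edgeR p under 0.05 and an adjusted p of 1.00. *Edn3*, an endothelin, was at 1.02, 1.04 and 0.557 CPM with saline and 1.20, 2.26 and 2.55 with JV101 after sham surgery (1.20, SE 0.53). Erythroid genes ranged over the sham libraries without following the groups: *Hbb-bs*, an adult beta globin, was at 13.5, 349.5 and 132 CPM with saline and 72.2, 118 and 7.82 with JV101.

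Placental genes were counted in 6 of the 12 libraries of the series, at 665 to 1893 counts over the 43 genes, and at 15 counts or fewer in the other 6. The libraries with such counts were sham saline replicates 1 and 2, NX saline replicates 1 and 2 (896 and 1033) and NX JV101 replicates 1 and 2 (1693 and 1893). NX saline replicate 3 held 0 and NX JV101 replicate 3 held 15. All sham JV101 libraries were thus among those with few. *Afp* did not follow the placental genes in amount: it had 55 and 171 counts in sham saline replicates 1 and 2, 2 and 1 in NX saline replicates 1 and 2, and 565 and 121 in NX JV101 replicates 1 and 2. *Mpo*, a gene of immature granulocytes, had 24 and 23, 62 and 56, and 18 and 29 counts in the same libraries and 0 in the sham libraries without placental counts. Where these reads came from was not tested.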
